A study of Homo sapiens with 6 samples.

Results

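The genes described here are 36 DNA repair genes of 3 pathways: 17 of nucleotide excision repair, 14 of base excision repair and 5 of mismatch repair. They were listed by name from pathway membership, a choice made with earlier results of these data known, and all 36 were found among the 57905 genes of the deposited count table. RNA was measured in RT4, an established line of non-muscle invasive human bladder cancer, 48 h after transfection with 100 pmol of siRNA. The Scramble group (3 libraries) received a universal negative control siRNA, and the LEADR-KD group (3 libraries) received 1 siRNA against LEADR, the spliced long non-coding RNA of the MIR205HG gene. Cells of both groups were wild type, and neither group carried any further agent. Because a single siRNA sequence was used in a single line, the loss of LEADR and other actions of that siRNA cannot be told apart.

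Nucleotide excision repair removes bulky lesions such as those left by ultraviolet light. Damage is found either across the genome, by XPC and the DDB proteins, or where RNA polymerase stalls, by the Cockayne syndrome proteins, after which the TFIIH complex opens the helix and 2 nucleases cut the damaged strand on either side. Base excision repair deals with small base lesions: a glycosylase removes the base, APEX1 cuts the backbone, and a polymerase and a ligase fill and seal the gap. Mismatch repair finds replication errors with MutS pairs and acts on them through MutL pairs. In bladder cancer these pathways are best known through ERCC2, a recurrently mutated TFIIH helicase, and through repair of platinum adducts by nucleotide excision.

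Total counts ran from 15706033 to 18960822 per library, and 14178 genes passed the filter on low counts and were tested. Mitochondrial transcripts took 3.06% to 11.9% of the counts, with both libraries numbered 1 at 10.8% or more and the other 4 libraries at 5.73% or less. MIR205HG stood at 30.1, 17.3 and 20.7 CPM (counts per library size, scaled by TMM) in Scramble and at 7.08, 11.6 and 5.72 CPM in LEADR-KD, so the groups did not overlap (log2 fold change -1.47, SE 0.26, adjusted p = 0.00180, edgeR quasi-likelihood test with Benjamini-Hochberg adjustment over all genes tested, as for every adjusted p here). Urothelial markers were abundant (15 of 16 tested, summed CPM 7541 to 8261 in Scramble and 8843 to 9426 in LEADR-KD). None of 10 leukocyte markers had enough counts to be tested, and 5 of them had no count in any library (summed CPM 0.177 to 0.896 and 0.313 to 0.770). Of 10 fibroblast and endothelial markers, 9 were in the table and 4 of these had no count in any library (summed CPM 36.6 to 39.0 and 22.8 to 28.2). Enough counts to be tested were present in 3 of them. VWF fell, from a mean of 8.28 CPM to 3.71 CPM (log2 fold change -1.16, adjusted p = 0.00553), and the other 2 did not pass.

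The siRNA is shown first because a short guide RNA can also pair, through its seed (bases 2 to 8 from the 5′ end, in capitals), with the 3′ UTRs of other transcripts. Both strands of the duplex are given, the second computed as the complement of the listed one without overhangs.
siRNA as listed: aACUGGGUgcuuuauauagga
complementary strand: uCCUAUAUaaagcacccaguu
A match to the seed of the listed strand (ACCCAGT, sense strand only) was present in the 3′ UTR of 2 of the 35 members tested (5.71%), CETN2 and OGG1, against 1425 of 12037 tested genes with an annotated UTR (11.8%). A match to the seed of the complementary strand (ATATAGG) was present in 1 member, ERCC8, whose 2 matches lie beyond the gene span of the count table. The other 32 members held neither. The windows are read from GRCh37 with the match in capitals, at chrX:151995948-151995954 on the minus strand for CETN2 and at chr3:9798907-9798913 on the plus strand for OGG1, both in the canonical transcript.
CETN2: ttttataaACCCAGTgaactcct
OGG1: ccatccccACCCAGTctcatgtt
Among all tested genes with a match to the listed strand, 26.5% were lower and 10.5% higher at adjusted p under 0.05, whereas among the 9876 genes with neither match 11.1% were lower and 14.3% higher. For the 953 genes with a match to the complementary strand, 14.6% were lower and 17.2% higher. The part that seed pairing has in any change below was not tested.

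Of the 36 genes, 35 passed the filter on low counts, and 9 of these passed the test. PARP1, RAD23B, MSH3 and MSH6 rose in LEADR-KD (4 of 35, 11.4%), against 12.2% of all genes tested. CETN2, APEX1, ERCC6, UNG and LIG3 fell (5 of 35, 14.3%), against 12.1% of all genes, and 3 of them still passed without LEADR-KD replicate 2 or without LEADR-KD replicate 3. Both shares are near the background, and the median log2 fold change of the 35 was -0.07, beside -0.01 for all genes, with 13 genes above 0 and 22 below. In 7 of the 35 every LEADR-KD library lay above every Scramble library and in 11 every one lay below, against 19.9% of all genes in the first direction and 19.9% in the second. Shared exon bases were read from GENCODE (v44lift37), which may differ from the annotation used for counting. There, between 24.2% and 40.1% are shared with another gene in XPC, ERCC1, ERCC5, MSH6, OGG1, MUTYH, NEIL1, MPG, XRCC1 and LIG3. The counts of these genes may be less certain for that reason. Only CETN2 changed by more than 1 on the log2 scale together with an adjusted p under 0.05. In the plot of change by role, the 9 genes fall among damage recognition (3), mismatch repair (2), the glycosylases (1) and the later base excision steps (3).

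**Figure D1:**
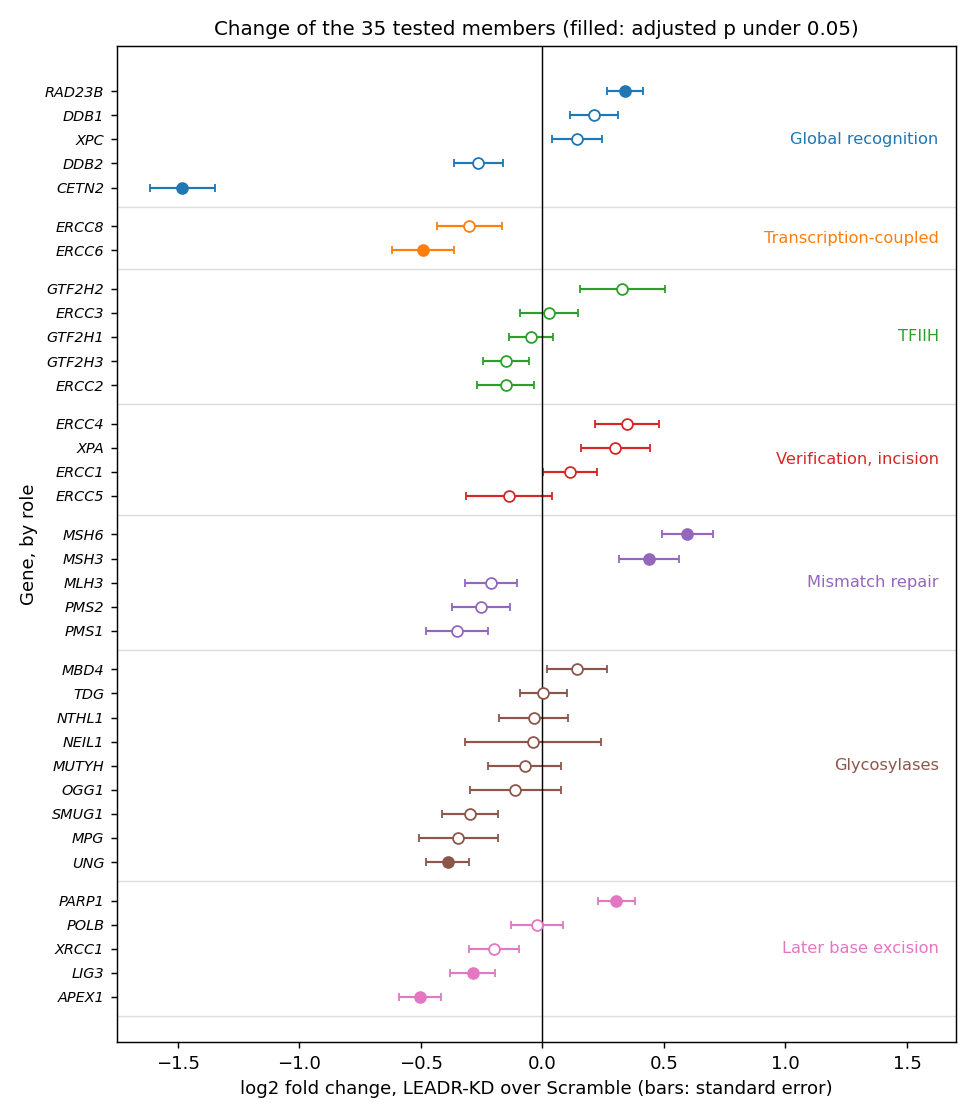
Log2 fold change (LEADR-KD over Scramble, x axis) of the 35 tested genes, grouped by role in repair, with bars for the standard error of the fit and filled points for an adjusted p under 0.05. CETN2 lies alone at -1.48, while the other 34 genes lie between -0.50 and 0.60, and none of the TFIIH or incision genes is filled.

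Global damage recognition held the largest change. CETN2 (ENSG00000147400, chrX:151995517-151999321 in hg19), the centrin that joins XPC and RAD23B in the damage sensor and also serves at centrioles, gave 38.1, 41.3 and 40.5 CPM in the 3 Scramble libraries and 15.03, 11.7 and 16.3 CPM in the 3 LEADR-KD libraries. The highest LEADR-KD library was well under the lowest Scramble library, and the level fell by 64.2% (log2 fold change -1.48, SE 0.13, adjusted p = 1.93e-05). CETN2 is one of the 2 members with a match to the listed strand of the siRNA, as printed above, and no other gene shares its exons. NSDHL, which starts next to CETN2 at chrX:151999511 on the opposite strand, also fell (log2 fold change -0.36, adjusted p = 0.0235). The NSDHL call was lost without Scramble replicate 2 (0.106) or LEADR-KD replicate 2 or 3 (0.0910 and 0.0627). Whether the falls of CETN2 and NSDHL are linked was not tested. The CETN2 partner RAD23B (ENSG00000119318, chr9:110045418-110094475), which stabilises XPC, gave 229, 241 and 227 CPM in Scramble and 291, 290 and 301 CPM in LEADR-KD. All 3 LEADR-KD libraries were higher (log2 fold change 0.34, SE 0.075, adjusted p = 0.00657). XPC itself, the subunit that binds the distorted helix, overlapped between groups at 41.4, 51.2 and 47.9 CPM against 48.8, 51.5 and 54.8 CPM (log2 fold change 0.14, SE 0.10, adjusted p = 0.357). The 3 genes of the XPC sensor therefore gave a fall, a rise and no call.

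Per transcript length (FPKM), CETN2 exceeded XPC by 2.29, 2.01 and 2.11 times in Scramble but reached only 0.767, 0.566 and 0.738 times the XPC level in LEADR-KD. RAD23B exceeded XPC in all libraries, by 4.90 to 5.75 times in Scramble and by 5.72 to 6.21 times in LEADR-KD, and these ranges overlap. The groups were separate in the ratio of CETN2 to XPC and overlapped in that of RAD23B to XPC, and neither ratio was tested.

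DDB1 and DDB2 form the complex that detects ultraviolet lesions in chromatin, with DDB1 also serving as adaptor of CUL4 ubiquitin ligases. DDB1 gave 447, 428 and 390 CPM in Scramble and 547, 456 and 463 CPM in LEADR-KD (log2 fold change 0.21, SE 0.098, adjusted p = 0.145). DDB2 gave 39.0, 36.5 and 38.9 CPM in Scramble and 29.2, 32.1 and 33.9 CPM in LEADR-KD (log2 fold change -0.26, SE 0.10, adjusted p = 0.0846). Neither passed, although in both the groups were separate and the fitted directions were opposite. Per length, DDB2 stood at 0.659, 0.644 and 0.753 of DDB1 in Scramble and at 0.403, 0.532 and 0.554 in LEADR-KD, so each LEADR-KD library had less DDB2 per DDB1 than any Scramble library.

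DDB2 and XPC are textbook targets of p53. Of 23 other p53 target genes tested, 1 rose (PPM1D, a phosphatase, log2 fold change 0.50) and 5 fell (4.35% and 21.7%, against 12.2% and 12.1% of all genes), with BBC3 (-1.33), C12orf5 (-1.11) and SPATA18 (-1.07) falling furthest. Their median was -0.01, as for all genes tested. Leaving out Scramble replicate 2, Scramble replicate 3 or LEADR-KD replicate 2 left 3 lower calls. Without Scramble replicate 2, BBC3 and PPM1D missed the threshold (adjusted p = 0.0710 and 0.0563), as did BBC3 without Scramble replicate 3 (0.0507), PPM1D and SPATA18 without LEADR-KD replicate 2 (0.0815 and 0.0990) and SPATA18 without Scramble replicate 1 (0.0946).

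Recognition at stalled polymerases rests on ERCC6 and ERCC8, which underlie Cockayne syndrome. ERCC6 (ENSG00000225830, chr10:50663414-50747584), the SWI/SNF-type ATPase that binds the stalled polymerase, gave 20.1, 19.5 and 21.8 CPM in Scramble and 16.0, 14.6 and 13.1 CPM in LEADR-KD. It fell in all 3 LEADR-KD libraries (log2 fold change -0.49, SE 0.13, adjusted p = 0.0157). The call was lost without Scramble replicate 3 (adjusted p = 0.0563), without LEADR-KD replicate 2 (0.0532) and without LEADR-KD replicate 3 (0.0650). ERCC6-PGBD3, annotated within ERCC6 on the same strand, had no count in any library, so the level of ERCC6 may be less certain. ERCC8, the ubiquitin ligase subunit that acts with ERCC6, gave 14.8, 14.9 and 13.0 CPM against 12.03, 11.99 and 10.8 CPM, again with separate groups, but did not pass (log2 fold change -0.30, SE 0.14, adjusted p = 0.134). The ratio of ERCC8 to ERCC6 per length overlapped between groups (1.09 to 1.40 and 1.37 to 1.5).

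TFIIH opens the helix in nucleotide excision repair and at promoters. None of its 5 tested members passed by edgeR or by DESeq2, and none had an unadjusted p under 0.05 in edgeR. Fitted log2 fold changes ran from -0.15 for the helicase ERCC2 to 0.33 for GTF2H2, and in all 5 the groups overlapped. ERCC2, the bladder cancer gene of this complex, gave 77.9, 62.0 and 69.2 CPM in Scramble and 72.9, 57.6 and 58.0 CPM in LEADR-KD (log2 fold change -0.15, SE 0.12, adjusted p = 0.397). ERCC3, the translocase that drives opening, was at 59.2, 71.8 and 74.6 CPM against 59.4, 71.6 and 78.4 CPM (log2 fold change 0.03, SE 0.12). In both genes the spread within a group exceeded the difference between groups. The core subunits GTF2H1 and GTF2H3 had log2 fold changes of -0.05 and -0.15. GTF2H2 has near-identical copies (GTF2H2C, log2 fold change 0.15, adjusted p = 0.700), so its counts are uncertain. GTF2H4 was not tested, with 6, 2 and 6 counts in Scramble and 1, 2 and 1 in LEADR-KD, while 79.7% of its exon bases are shared with an overlapping annotated gene, so how much of it was expressed cannot be read from its counts.

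Verification and incision follow. XPA, the scaffold that checks the lesion, gave 9.01, 9.29 and 9.49 CPM in Scramble and 10.7, 12.2 and 11.3 CPM in LEADR-KD (log2 fold change 0.30, SE 0.14, adjusted p = 0.153). ERCC4, the nuclease subunit that cuts 5′ of the lesion, gave 11.5, 10.6 and 11.1 CPM against 13.1, 14.6 and 14.6 CPM (log2 fold change 0.35, SE 0.13, adjusted p = 0.0790). Both were higher in every LEADR-KD library without passing. ERCC1, the obligate partner of ERCC4, had a log2 fold change of 0.11 (adjusted p = 0.506), and ERCC5, the nuclease of the 3′ side, one of -0.14 (adjusted p = 0.625), each with overlapping groups. Of these 4 genes ERCC4 alone had an unadjusted p under 0.05, and none passed in edgeR or DESeq2. Beyond the recognition steps, therefore, no nucleotide excision repair gene among the listed members passed the test. Further excision repair genes outside the members are described below, and some of those passed.

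In mismatch repair, both MutS genes on the list rose and no MutL gene passed. MSH6 (ENSG00000116062, chr2:47922669-48037240), the MutSα subunit that detects single mismatches, gave 107, 111 and 94.6 CPM in Scramble and 181, 152 and 139 CPM in LEADR-KD. It rose by 51.2% and was higher in 3 of 3 LEADR-KD libraries (log2 fold change 0.60, SE 0.11, adjusted p = 0.00189). MSH3 (ENSG00000113318, chr5:79950467-80172279), the MutSβ subunit that detects larger loops, gave 27.4, 24.4 and 24.4 CPM in Scramble and 39.6, 30.1 and 33.8 CPM in LEADR-KD. It also rose without overlap (log2 fold change 0.44, SE 0.12, adjusted p = 0.0236). This call was lost when Scramble replicate 2, Scramble replicate 3, LEADR-KD replicate 1 or LEADR-KD replicate 3 was left out, with adjusted p-values of 0.0783, 0.0665, 0.0815 and 0.0510 in that order. Per length, MSH6 exceeded MSH3 by 1.79 times on average in Scramble and by 2.0 times in LEADR-KD, and the libraries overlapped in this ratio.

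The 3 MutL genes had log2 fold changes below 0, and none passed in edgeR or DESeq2, with 1 (PMS1) at an unadjusted p under 0.05 in edgeR. PMS1 gave 36.6, 32.9 and 27.6 CPM in Scramble and 27.9, 23.1 and 25.2 CPM in LEADR-KD (log2 fold change -0.35, SE 0.13, adjusted p = 0.0696), with LEADR-KD replicate 1 inside the Scramble range. PMS2, the MutL endonuclease subunit, gave 28.2, 27.8 and 28.0 CPM against 26.6, 22.9 and 21.0 CPM (log2 fold change -0.25, SE 0.12, adjusted p = 0.147). MLH3, which is also used in meiotic crossovers, gave 33.9, 30.9 and 31.9 CPM against 30.0, 26.5 and 27.1 CPM (log2 fold change -0.21, SE 0.11, adjusted p = 0.178). PMS2 shares sequence with pseudogenes, of which PMS2CL had a log2 fold change of -0.27 (adjusted p = 0.366), and its counts are uncertain. MSH6 overlaps other genes on 24.2% of its exon bases, mostly FBXO11 on the opposite strand, and MSH3 on 5.87%. FBXO11 rose as well (log2 fold change 0.33, adjusted p = 0.0208), although the call was lost without Scramble replicate 2 or 3 or LEADR-KD replicate 2 or 3 (0.0503 to 0.0815). No source used here states whether reads were counted by strand, so reads of such pairs may not be separated.

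**Figure D2:**
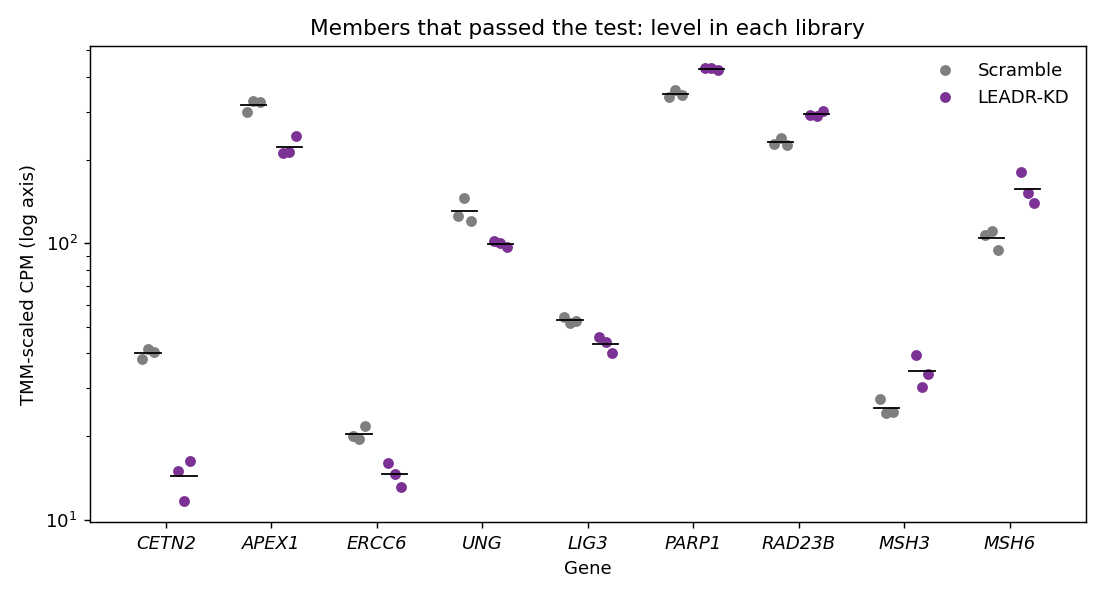
CPM after TMM scaling (log y axis) of the 9 genes that passed the test, 1 point per library, with the group mean as a bar. Scramble and LEADR-KD points are separate in all 9 genes, by the widest margin in CETN2.

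Promoters were searched for the E2F consensus because the data hold a group of S phase genes that rose. RefSeq promoters (GRCh38.p14, 250 bases before to 50 after the start) were found for 34 members, all but SMUG1 and POLB. The search used TTTCCCGC, TTTCGCGC, TTTGCCGC and TTTGGCGC on both strands. At least 1 of them was found in 3.33% of all promoters, in 5.51% of promoters of tested genes, in 12 of 24 promoters of the S phase list and in 4 of the 34 members (11.8%), namely MSH3, MSH6, XPC and PMS2. The matches start at base -107, 3, -241 and -43 from the gene start in that order, with the match in capitals.
MSH3: cggtcaagTTTGGCGCgaaattgt
MSH6: cccccagaTTTCCCGCcagcagga
XPC: ctgcgcccTTTCCCGCctctcgcg
PMS2: gaagtattTTTGCCGCcccgcccg
In MSH3 a second match, GCGCGAAA, overlaps the first on the other strand and starts at base -103. The members with a match thus included both MutS genes that rose, and also XPC and PMS2, which did not pass. A match of letters is a description and shows no binding.

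Base removal is done by glycosylases, each with its own set of lesions. UNG (ENSG00000076248, chr12:109535379-109548797), the main uracil glycosylase, gave 126, 146 and 121 CPM in Scramble and 102, 100.1 and 97.1 CPM in LEADR-KD. The 3 LEADR-KD libraries lay close together and below all 3 Scramble libraries (log2 fold change -0.39, SE 0.089, adjusted p = 0.00822). SMUG1, another uracil glycosylase, gave 30.9, 36.03 and 32.8 CPM against 25.2, 25.7 and 30.2 CPM (log2 fold change -0.30, SE 0.12, adjusted p = 0.0846). MPG, which removes alkylated purines, gave 9.13, 11.1 and 10.4 CPM against 7.02, 8.31 and 8.78 CPM (log2 fold change -0.35, SE 0.16, adjusted p = 0.149). SMUG1 and MPG were lower in every LEADR-KD library without passing.

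The thymine glycosylases of deaminated CpG sites gave no separation. TDG had 53.3, 56.7 and 63.1 CPM in Scramble and 54.9, 56.3 and 62.2 CPM in LEADR-KD (log2 fold change 0.00, SE 0.097), and MBD4 had a log2 fold change of 0.14 (SE 0.12). The enzymes for oxidised bases overlapped between groups too. OGG1, which removes 8-oxoguanine and is the second member with a match to the listed siRNA strand, gave 10.2, 11.03 and 11.2 CPM against 7.14, 11 and 11.8 CPM (log2 fold change -0.11, SE 0.19, adjusted p = 0.715). The low value came from LEADR-KD replicate 1 alone. MUTYH, which removes adenine paired with 8-oxoguanine, was likewise lowest in that library (15.1 CPM, against 18.2 to 22.1 CPM in the other 5), as was NEIL1 (2.32 CPM, against 3.36 to 4.70 CPM). This library is one of the 2 with a high mitochondrial share, and the part of that share in these values was not tested. NTHL1, which acts on oxidised pyrimidines, spanned only 9.68 to 10.8 CPM over all 6 libraries. Of the 9 glycosylases, UNG passed, and UNG and SMUG1 had an unadjusted p under 0.05. None of these 9 rose in edgeR or DESeq2, and none above 0 had an unadjusted p under 0.05.

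After base removal the pathway is carried by APEX1, PARP1, XRCC1, POLB and LIG3. Here 3 of 5 passed, 1 higher and 2 lower (60% in either direction, against 24.4% of all genes tested). APEX1 (ENSG00000100823, chr14:20923350-20925927), the main abasic site endonuclease, gave 298, 328 and 325 CPM in Scramble and 213, 214 and 244 CPM in LEADR-KD. It fell by 29.5% with a wide gap between groups (log2 fold change -0.50, SE 0.086, adjusted p = 0.00147). PARP1 (ENSG00000143799, chr1:226548392-226595780), the nick sensor that builds poly(ADP-ribose), gave 339, 359 and 343 CPM in Scramble and 430, 433 and 424 CPM in LEADR-KD. It rose in all 3 LEADR-KD libraries (log2 fold change 0.30, SE 0.077, adjusted p = 0.0141), although with library totals as the only scaling it missed the threshold (adjusted p = 0.0789). LIG3 (ENSG00000005156, chr17:33307513-33332083), the ligase that pairs with XRCC1, gave 54.2, 51.5 and 52.5 CPM in Scramble and 45.7, 43.8 and 40.2 CPM in LEADR-KD. Its groups were separate (log2 fold change -0.29, SE 0.092, adjusted p = 0.0410), but the call was the least stable of the 9, holding in 6 of 14 alternatives. It was lost without Scramble replicate 1, 2 or 3 (adjusted p = 0.09996, 0.0818 and 0.0941), without LEADR-KD replicate 2 or 3 (0.103 and 0.148), without both libraries numbered 1 (0.0569), with no filter (0.107) and in limma on FPKM (0.0864).

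XRCC1, the scaffold of this step, gave 55.8, 60.7 and 69.1 CPM in Scramble and 51.3, 52.7 and 57.5 CPM in LEADR-KD, with overlap (log2 fold change -0.20, SE 0.10, adjusted p = 0.185). POLB, the gap-filling polymerase, was the steadiest member of this step at 22.2, 21.4 and 21.6 CPM against 21.9, 21.1 and 21.3 CPM (log2 fold change -0.02, SE 0.11). Because APEX1 fell and PARP1 rose, APEX1 exceeded PARP1 per length by 3.34, 3.48 and 3.61 times in Scramble and by only 1.89, 1.88 and 2.19 times in LEADR-KD. XRCC1 and LIG3 kept overlapping ratios (2.45 to 3.13 and 2.67 to 3.41). Of LIG3, 30.5% of exon bases are shared, mostly with RFFL on the opposite strand, which did not pass (log2 fold change -0.14, adjusted p = 0.374), and APEX1 shares 4.88% with TMEM55B (-0.41, adjusted p = 0.122).

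By level per length, base excision enzymes were among the highest of the 36. APEX1 led in Scramble at 167 ± 8.9 FPKM (SD, n = 3), ahead of UNG at 50.4 ± 5.2, RAD23B at 49.9 ± 1.7 and PARP1 at 48.0 ± 1.5 FPKM, and APEX1 was separate from these 3, which overlapped with each other. DDB1, CETN2 and DDB2 followed at 29.9 ± 2.1, 20.5 ± 0.87 and 20.4 ± 0.73 FPKM, the last pair again overlapping. In LEADR-KD, CETN2 dropped to 7.42 ± 1.2 FPKM. At the lower end stood OGG1 at 1.22 ± 0.060, ERCC5 at 1.06 ± 0.12 and NEIL1 at 0.721 ± 0.10 FPKM, with GTF2H4 at 0.114 ± 0.061 FPKM. All of these genes share exon bases with other genes, so their low levels are less certain. BIVM-ERCC5, annotated over most of ERCC5 on the same strand, had no count in any library. How reads shared by ERCC5 and BIVM-ERCC5 were counted is not known. Of the 36 genes, 13 exceeded 10 FPKM in Scramble, and 22 of the 35 neighbouring pairs in this order overlapped between libraries, so most of the ranking is not resolved.

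**Figure D3:**
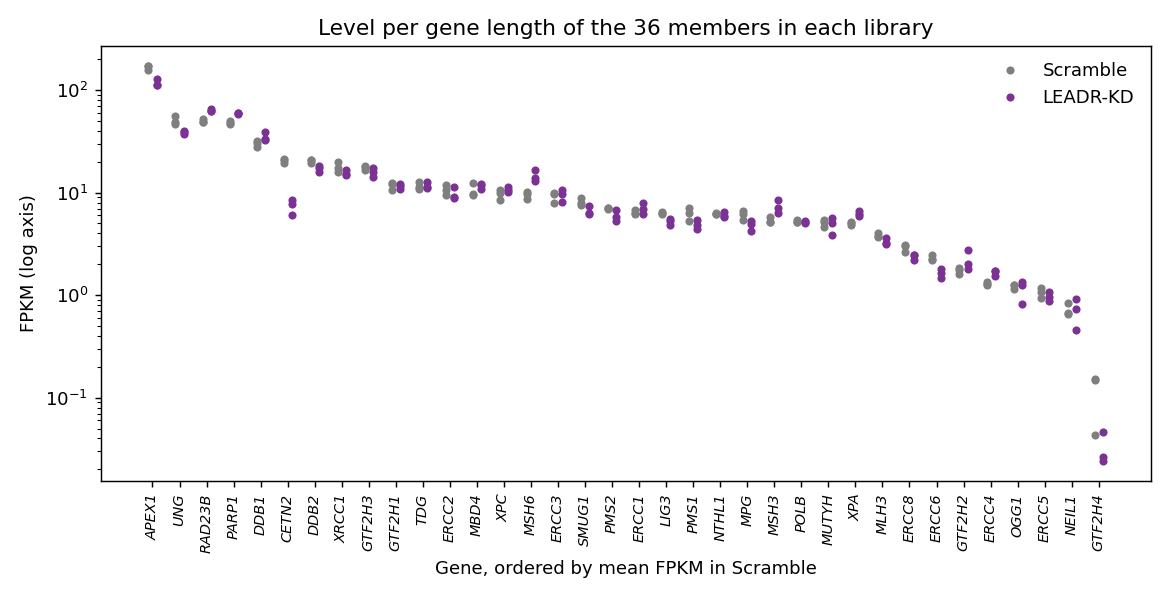
FPKM (log y axis) of all 36 genes in each library, ordered by the Scramble mean, with Scramble and LEADR-KD points side by side. APEX1 is highest in both groups, and CETN2 shows the widest gap among the genes above 1 FPKM.

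The excision and mismatch genes were set beside recombination repair, which mends double-strand breaks with a sister copy. Of 47 recombination and Fanconi genes tested, 12 rose (25.5%, against 12.2% of all genes) and 1 fell (2.13%, against 12.1%), with a median log2 fold change of 0.17. NBN, of the MRN break sensor, rose most (log2 fold change 1.40), followed by the helicase MCM8 (0.99) and the motor protein RAD54L (0.74), while the recombination gene RAD51C fell by 0.35 on the log2 scale (adjusted p = 0.0429). That fall was lost without any 1 of Scramble replicates 1 to 3 and LEADR-KD replicates 1 and 2 (adjusted p = 0.0700 to 0.158), and 8 rises were left without LEADR-KD replicate 2 or without LEADR-KD replicate 3. The summed level of the 47 genes was 1735 to 1796 CPM in Scramble and 2151 to 2192 CPM in LEADR-KD. For the 36 genes the counts were 4 higher and 5 lower with a median of -0.07, so rises outnumbered falls on the recombination list and not among the 36. The difference between the lists was not tested.

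A second list held 46 further genes of excision and mismatch repair that are not among the 36. Of these, 17 rose (37.0%, against 12.2% of all genes) and 2 fell (4.35%, against 12.1%), with a median of 0.15. Most that rose also serve DNA replication: PCNA, RFC1, RFC2, RFC3, RFC4, RFC5, POLD1, POLE, POLE2, POLE3, FEN1 and LIG1. Among these, RFC1, POLE and POLE3 each passed in 9 of 14 alternatives, POLD1 in 6 and RFC5 in 5. The part of replication in these rises was not tested. NEIL3, a glycosylase used at replication forks, rose most (log2 fold change 1.2, from 7.22 to 8.01 CPM in Scramble to 16.7 to 18.5 CPM in LEADR-KD), followed by the clamp loader subunit RFC4 (0.86) and the mismatch exonuclease EXO1 (0.71). POLL, a gap-filling polymerase, and APEX2, the second abasic endonuclease, fell (-0.66 and -0.39). The APEX2 call (adjusted p = 0.0491) held in 6 of 14 alternatives. It was lost without any 1 of Scramble replicates 2 and 3 and the 3 LEADR-KD replicates (0.0613 to 0.197). It was also lost without both libraries numbered 1 (0.0557), with library totals (0.0922) and in limma on FPKM (0.0739). With library totals as the only scaling, 12 rose.

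S phase and cycling genes moved alongside. Of 30 tested, 19 rose (63.3%, against 12.2% of all genes) and none fell in edgeR as fitted here (against 12.1%), with a median of 0.33. TOP2A, a mitotic topoisomerase, was the 1 gene below 0 with an unadjusted p under 0.05 (log2 fold change -0.26, adjusted p = 0.0524), and it was lower in every LEADR-KD library. It passed in 6 of 14 alternatives (adjusted p = 0.0131 to 0.191 over the 14), among them DESeq2, library totals, the stricter filter and leaving out LEADR-KD replicate 1 (0.0207, 0.0412, 0.0281 and 0.042). MKI67, CCNB1 and AURKA, which mark mitotic or cycling cells, were also below 0 (log2 fold changes -0.18, -0.17 and -0.14) and did not pass. Other genes of this kind lay above 0. CDK1 passed (log2 fold change 0.32, adjusted p = 0.0181), while PLK1, CCNA2, BUB1 and AURKB did not (0.29, 0.20, 0.06 and 0.04). Of the 30 genes, 26 lay above 0 and 4 below. With library totals as the only scaling, 11 rose and 1 fell. The largest rises were in the licensing factors CDC6 (log2 fold change 1.00) and CDT1 (0.83) and in cyclin CCNE2 (0.75). Their summed level was 4538 to 4666 CPM in Scramble and 5231 to 5512 CPM in LEADR-KD. In these bulk libraries, more cells in S phase and more RNA per cell cannot be told apart. The study reports no significant change in growth or in EdU incorporation after LEADR knockdown, and those assays were not analysed here. The part of the cell cycle in the rises of MSH3, MSH6, RAD23B and PARP1 was not tested.

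**Figure D4:**
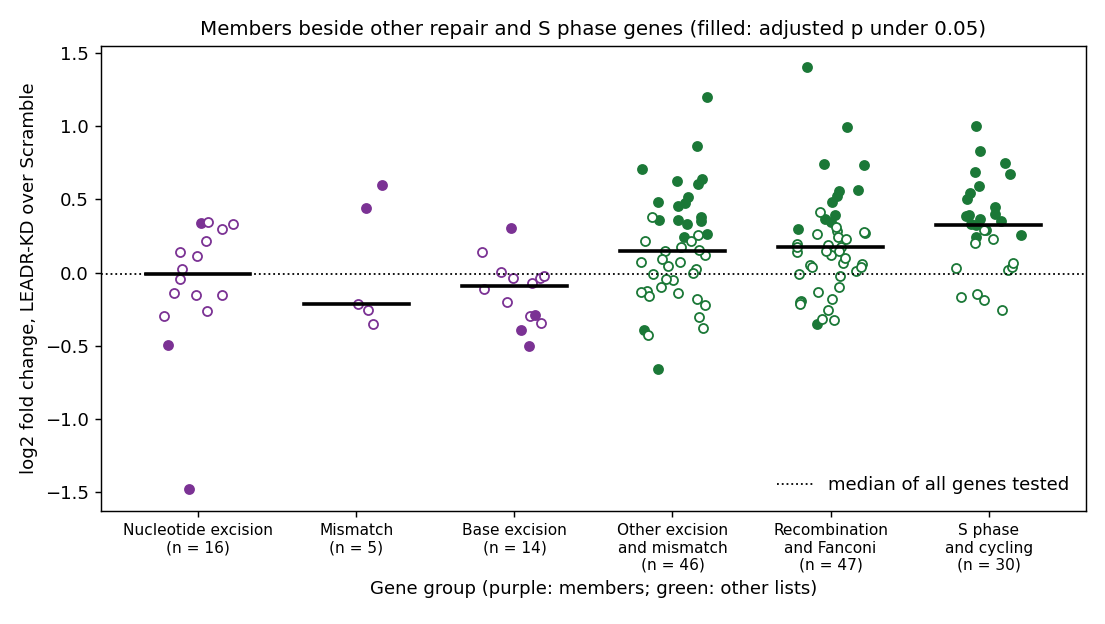
Log2 fold change of each tested gene, by group, for the nucleotide excision, mismatch and base excision genes (purple) and for the other excision and mismatch, recombination and Fanconi, and S phase lists (green). Bars are group medians (-0.01, -0.21 and -0.09 in purple, 0.15, 0.17 and 0.33 in green), filled points have an adjusted p under 0.05, and the dotted line is the median of all genes tested.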

How the data were processed

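RNA was poly(A)-selected and sequenced from 3 Scramble and 3 LEADR-KD samples, with a dUTP kit that marks strand. The submitters' processing notes name HISAT2 2.0.5, featureCounts 1.5.0-p3, DESeq2 1.20.0 and hg19. The study's methods name Salmon, and no source used here states whether reads were counted by strand. One deposited table holds raw counts per gene, as the authors made them, and another holds FPKM values that the authors scaled by gene length and by a constant for each library that was not its total count. The remaining deposited table holds the authors' own fold changes and p-values and was not used.

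Counts were tested with edgeR 4.0.16 (R 4.3.3): TMM scaling, filterByExpr (minimum count 10), quasi-likelihood fit without covariates, Benjamini-Hochberg adjustment over 14178 genes, threshold 0.05. The biological coefficient of variation was 12.6%, and library totals of 15706033 to 18960822 counts set the precision for low genes. CPM values are scaled by TMM. FPKM served for levels and ratios between genes and for the limma alternative. The design named DESeq2 (1.42.0), limma (3.58.1) on log2(FPKM + 1), other scalings and filters, a replicate block, and samples left out as alternatives. The tests were tested on simulated data first.

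By rule, members past the threshold were given in full and the rest by values, ranges and counts, and up to 3 genes per direction were named for each other list. The neighbouring genes and TOP2A, MKI67, CCNB1 and AURKA were named after their values were seen. The same holds for CDK1, PLK1, CCNA2, BUB1 and AURKB and for the replication genes of the second list. Members and lists were chosen with earlier results of these data known. Seed matches were read from the canonical 3′ UTRs of GENCODE (v44lift37) on GRCh37, and promoters from RefSeq. The study's methods call the samples biological replicates, and the labels do not say whether they were separate cultures, so part of the spread behind each p-value may be technical.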

Additional observations from a re-analysis of the deposited data

How the results depend on the processing

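Over 14 alternatives that keep the call rule, the 35 tested genes gave 3 to 5 higher and 3 to 8 lower calls with a median of -0.12 to -0.03. CETN2, APEX1, UNG, RAD23B and MSH6 passed in all 14, and MIR205HG also (-1.82 to -1.13). The replicate numbers were not shown to pair samples: deviations of same-numbered libraries correlated at 0.475, -0.00453 and 0.556, and Scramble replicate 2 correlated best with LEADR-KD replicate 1. With the replicate block, 5 members were higher and 8 lower, recombination genes gave 3 lower calls, and all genes 2489 higher and 2365 lower. DDB1, DDB2, SMUG1 and PMS1 passed with the block (adjusted p = 0.0367, 0.0375, 0.0304 and 0.0154), and PMS1 also with library totals (0.0465) and without Scramble replicate 3 (0.0322). Leaving out 1 library at a time gave 3 to 5 lower and 3 to 4 higher members, 0 to 1 lower recombination genes and 1142 to 1472 lower genes overall. The single lower recombination gene was lost (0) with library totals, with no filter and without both libraries numbered 1, and the stricter filter (mean of 5 CPM) gave 2. Library totals left 1085 higher genes overall. Adding a log2 fold change beyond 1 left 0 higher and 1 lower member, 1 higher and 0 lower recombination genes, and 232 higher and 366 lower genes overall. Leaving out members that share exons with another gene or have a near-identical copy left 2 higher and 2 lower. Other scalings moved the median of all genes by at most 0.044. The causes of these shifts were not tested.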
